A study of Mus musculus with 2 samples.

Results

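The genes described here are the 2 corticosteroid receptors and 4 genes tied to them: *Nr3c1* (glucocorticoid receptor), *Nr3c2* (mineralocorticoid receptor), the immunophilin co-chaperones *Fkbp4* (FKBP52) and *Fkbp5* (FKBP51), and the steroid-induced genes *Sgk1* and *Tsc22d3* (GILZ). They were chosen by gene name, and all 6 were among the 14787 annotated genes with reads in both libraries. The tables gave them 65 of 135738 transcript models in replicate 1 and 62 of 130247 in replicate 2. Long-read RNA sequencing, in which 1 read can span a whole cDNA, had been run on tissue whose label reads "layer of hippocampus", from female mice of the strain B6CASTF1/J, a hybrid of C57BL/6J and CAST/EiJ, 2 months of age. Both libraries carry the same donor entry in the labels. There was 1 group of 2 libraries, replicates 1 and 2, each from 2 µg of RNA, with no treatment, stress or hormone manipulation named in the labels. The mice were therefore compared with no other state, and every test below compares the reads of replicate 1 with those of replicate 2. The labels call the replicates biological but do not plainly say that they came from separate animals. The description of each library names the same cDNA preparation, while a characteristic of replicate 1 names another. The SDs over n = 2 and the p-values therefore measure only the spread between these 2 libraries, which may be technical.

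Both receptors are transcription factors that sit in the cytoplasm with heat shock protein 90 until they bind corticosterone, the main glucocorticoid of mice. The mineralocorticoid receptor binds corticosterone more tightly than the glucocorticoid receptor does, and the hippocampus is a classic site where both occur. FKBP52 favours hormone binding and transport of the receptor to the nucleus, and FKBP51 lowers its affinity. *Fkbp5*, *Sgk1* and *Tsc22d3* are themselves induced by the activated receptor.

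The tables held 826596 reads not on spike-in RNAs in replicate 1 and 745492 in replicate 2, of which 367 and 387 fell on the 6 genes. The unit of level is CPM, a gene's reads in every 1000000 of those reads. A read is 1 cDNA whatever its length, so CPM values of different genes were compared as numbers of cDNAs, without dividing by length, and how fully cDNAs of different lengths were recovered was not measured. A single read equals 1.21 or 1.34 CPM in the respective libraries, and 0 reads allow a level of up to 3.63 and 4.02 CPM. In bulk tissue, more cells of a type and more RNA per cell cannot be told apart. All 10 markers of hippocampal neurons were read, with a summed level of 4107 and 4156 CPM, as were all 5 of astrocytes (3166 and 3089), oligodendrocytes (2363 and 2613), microglia (252 and 298) and endothelium (371 and 298). Of 6 choroid plexus genes *Aqp1* and *Otx2* had 0 reads, and the sum of 339.9 and 189 CPM was nearly all *Ttr*. The 5 pituitary hormone genes *Gh*, *Prl*, *Tshb*, *Lhb* and *Fshb* had 0 reads in both libraries.

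*Fkbp4* had the highest level of the 6 genes and *Fkbp5* the lowest. *Fkbp4* (ENSMUSG00000030357.10) was at 189.9 and 199.9 CPM, *Tsc22d3* (ENSMUSG00000031431.13) at 85.9 and 97.9, *Nr3c2* (ENSMUSG00000031618.13) at 72.6 and 84.5, *Nr3c1* (ENSMUSG00000024431.15) at 44.8 and 51.0, *Sgk1* (ENSMUSG00000019970.15) at 35.1 and 59.0, and *Fkbp5* (ENSMUSG00000024222.17) at 15.7 and 26.8, in replicates 1 and 2. The ranges of the 2 libraries overlapped for *Nr3c1* and *Sgk1* alone among neighbours in this order. *Tsc22d3* and *Nr3c2* were nearly level, the lower *Tsc22d3* value (85.9) lying just above the higher *Nr3c2* value (84.5). Among the 14787 genes read in both libraries, whose median was 19.8 CPM, *Fkbp4* ranked 811, *Tsc22d3* 2134, *Nr3c2* 2546, *Nr3c1* 4110, *Sgk1* 4181 and *Fkbp5* 7148.

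**Figure D1:**
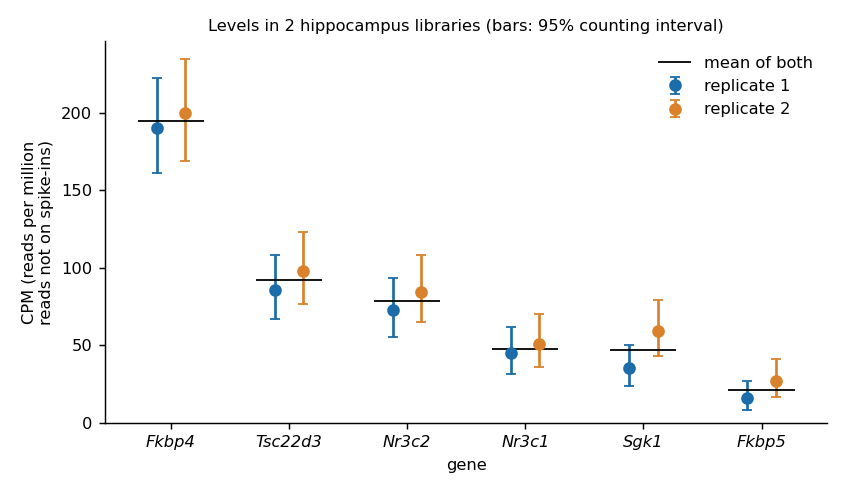
Level of each gene in CPM (vertical axis, linear, from 0) in replicate 1 (blue) and replicate 2 (orange), with exact 95% counting intervals as bars and the mean of both libraries as a black line. All 6 genes were higher in replicate 2, and the gap was widest, relative to the level, for Sgk1 (35.1 and 59.0 CPM) and Fkbp5 (15.7 and 26.8 CPM).

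The mineralocorticoid receptor gave more reads than the glucocorticoid receptor in both libraries. *Nr3c2*, on chromosome 8 of mm10 (76899442 to 77245012, plus strand), had 60 and 63 reads, a mean of 78.5 ± 8.43 CPM (SD, n = 2). *Nr3c1*, on chromosome 18 (39410545 to 39519421, minus strand), had 37 and 38 reads, a mean of 47.9 ± 4.39 CPM (SD, n = 2). The ratio of *Nr3c2* to *Nr3c1* reads was 1.62 in replicate 1 (95% interval 1.06 to 2.51) and 1.66 in replicate 2 (1.09 to 2.55), so both intervals lay above 1 for all reads. These intervals, exact Clopper-Pearson intervals of the share of reads turned into ratios, cover counting error only, as do all others here, since reads without molecular identifiers need not be independent molecules. Partial and genomic reads enter these ratios. Reads with a full splice chain numbered 44 and 41 for *Nr3c2* and 30 and 28 for *Nr3c1*. That excess is relatively smaller, and its intervals were not computed. An excess beyond counting error is therefore shown for all reads alone and not for full-splice reads. Of other receptors of the same subfamily, the progesterone receptor *Pgr* was at 7.26 and 5.37 CPM and the estrogen receptor *Esr1* at 1.21 and 2.68, both below either corticosteroid receptor in each library, and *Esr2* had 0 reads in both.

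*Nr3c1* was read from several first exons, and all but one of them lie ahead of its coding sequence. Of its reads, 30 and 28 carried a full splice chain, meaning that they matched an annotated transcript, an unannotated combination of annotated splice sites, or a chain with an unannotated site. The first exon of Nr3c1-203 (39490568 to 39490674) took 13 and 16 of them, 50.2% ± 9.76 (SD, n = 2). Another first exon, nearer the coding sequence, seen with 2 donor sites (ends at 39489477, as in Nr3c1-208, and at the unannotated 39489440), took 11 and 9. Reads recorded as starting in the coding exon itself (39485998 to 39487245, as in Nr3c1-202 and Nr3c1-204) numbered 5 and 3, and the exon of Nr3c1-205 had 1 and 0. A cDNA from an upstream start that was cut short inside the coding exon would show the same introns. Whether the 5 and 3 reads mark a separate start was not tested. The start codon lies in that coding exon, so the first exons ahead of it change the 5′ untranslated part and leave the receptor of 792 residues as annotated. The annotated gene reaches 28.7 kb further upstream than the leading first exon, and the most distal first exon seen in these reads was 28.1 kb inside it.

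The complete chain of Nr3c1-203 had 11 and 14 reads, 43.3% ± 9.43 of full-splice reads (SD, n = 2). An unannotated combination joining the exon that ends at 39489477 to all 8 coding exons had 8 and 5 reads, 22.3% ± 6.23 (SD, n = 2), and Nr3c1-204 had 4 and 2. The same chain from the unannotated donor at 39489440 had 3 and 2. A splice donor that adds 3 bases at the end of exon 3, the donor of the glucocorticoid receptor gamma form with 1 extra residue in the DNA-binding domain, was used by 2 of 31 reads in replicate 1 (6.45%, exact 95% interval 0.791 to 21.4) and 3 of 29 in replicate 2 (10.3%, 2.19 to 27.4). The last intron was spliced out in 33 and 29 reads and retained in 0 and 1.

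*Nr3c2* also had alternative first exons ahead of a shared coding part. The exon of Nr3c2-204 (76899442 to 76900260) took 24 of 44 and 28 of 41 full-splice reads, 61.4% ± 9.72 (SD, n = 2). The exon of Nr3c2-203 (76902288 to 76902540), 2.8 kb downstream, took 15 and 9, 28.0% ± 8.58 (SD, n = 2). Between them, an unannotated first exon (recorded as 76901516 to 76901647) took 3 and 4 reads, and 2 further exons had 1 read each, in replicate 1. The order of the leading pair was the same in both libraries, and the 3 exons feed the same start codon at 76908272 and a receptor of 980 residues.

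By whole chains, Nr3c2-204 had 18 and 21 reads, 46.1% ± 7.29 (SD, n = 2), and Nr3c2-203 had 11 and 7. A noncoding exon of 31 bases (76906593 to 76906623), annotated between the first exon and the start codon exon, was included in 12 of 46 reads in replicate 1 (26.1%, exact 95% interval 14.3 to 41.1) and in 7 of 44 in replicate 2 (15.9%, 6.64 to 30.1). Its junction with the Nr3c2-204 first exon is not annotated and was read 7 and 5 times, 5 and 4 of them in one full chain. A chain that joins it to the Nr3c2-203 first exon had 2 and 2, and there the junction is annotated and only the whole combination is not. The unannotated first exon joined straight to the start codon exon in 2 and 4 reads. In 6 reads of each library the start codon exon ran on past its donor site into the intron.

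*Fkbp4* gave many more reads than *Fkbp5* in both libraries. *Fkbp4*, on chromosome 6 (128429735 to 128438677, minus strand), had 157 and 149 reads, a mean of 194.9 ± 7.02 CPM (SD, n = 2). *Fkbp5*, on chromosome 17 (28399094 to 28517527, minus strand), had 13 and 20 reads, a mean of 21.3 ± 7.85 CPM (SD, n = 2). The ratio of *Fkbp4* to *Fkbp5* reads was 12.1 in replicate 1 (95% interval 6.86 to 23.2) and 7.45 in replicate 2 (4.65 to 12.5). Genomic single-exon reads, most of those of *Fkbp5*, enter these ratios. Without genomic models, an alternative chosen after seeing the data, the reads were 129 and 4 in replicate 1, a ratio of 32.2 (12.3 to 120.2), and 124 and 8 in replicate 2, a ratio of 15.5 (7.63 to 36.7). *Fkbp4* used 1 first exon (128438406 to 128438677) in 120 of 124 and 117 of 118 full-splice reads, 98.0% ± 1.68 (SD, n = 2), and its annotated chain Fkbp4-201, of 10 exons and 458 residues, took 116 and 111 of them. An unannotated chain that retains the intron from 128433292 to 128433525 had 0 and 5 reads, and one from the exon of Fkbp4-203 had 2 and 1.

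Most *Fkbp5* reads did not show the gene's splicing. Single-exon reads inside the last exon, which TALON classes as genomic, made up 9 of 13 reads in replicate 1 and 12 of 20 in replicate 2, 64.6% ± 6.53 (SD, n = 2), against a median of 3.72% for genomic reads over 6038 genes with at least 20 reads in each library. Full-splice reads numbered 3 and 7, all from the first exon of Fkbp5-201 (28485952 to 28486149), and 9 of those 10 carried that transcript's whole chain of 11 exons. A single further read in replicate 1, an incomplete match, held exons upstream of that first exon. Its most upstream intron was the annotated one from 28488004 to 28499365. None of the annotated first exons of the gene borders that intron, so the read did not show a distal start. Without genomic models the *Fkbp5* level was 8.57 CPM (mean, n = 2) on the reads kept, in place of 21.3.

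*Fkbp4* shared this feature in part. Genomic reads were 28 of 157 and 25 of 149, 17.3% ± 0.747 (SD, n = 2), and were recorded as single-exon models at the annotated 3′ end of the gene. One such model, with 28 reads in replicate 1, had a recorded length of 1 base, so that the ends of these models say little about the reads behind them. The full-splice share was 79.1% ± 0.151 for *Fkbp4*, 77.4% ± 5.23 for *Nr3c1*, 69.2% ± 5.84 for *Nr3c2*, 85.7% ± 4.16 for *Sgk1*, 89.6% ± 0.778 for *Tsc22d3* and 29.0% ± 8.43 for *Fkbp5* (SD, n = 2 each). Over the 6038 genes the median was 85.0%, with quartiles at 68.7% and 92.8%, and *Fkbp5*, itself under that read minimum, was the 1 gene of the 6 with a mean below the lower quartile. Unannotated combinations of known splice sites made up 29.7% and 21.1% of *Nr3c1* reads and 16.7% and 11.1% of *Nr3c2* reads, against a median of 3.27% and an upper quartile of 10.9% over those genes.

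**Figure D2:**
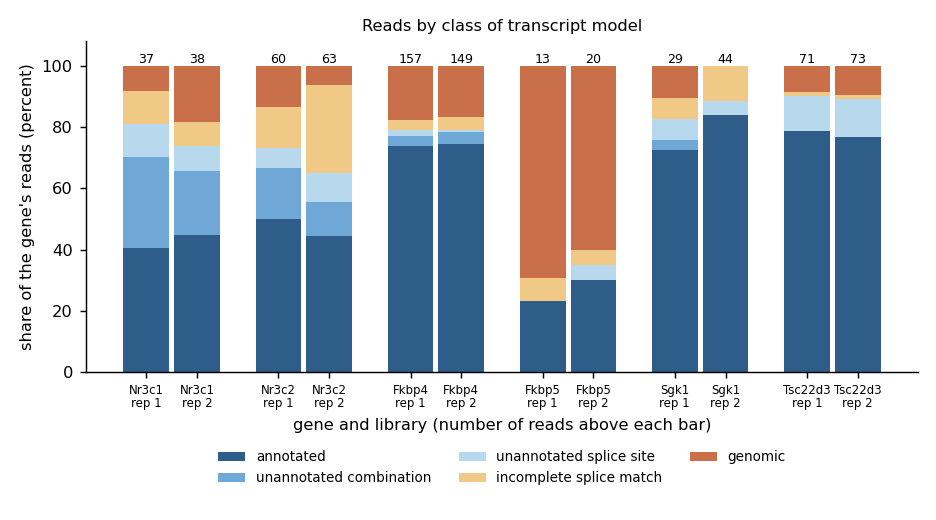
Share of each gene's reads (vertical axis, percent) by class of transcript model, 1 bar per gene and library, with the number of reads above it; blue shades are the 3 full-splice classes. Genomic models took 69.2% and 60.0% of Fkbp5 reads, and annotated models 73.9% and 74.5% of Fkbp4 reads.

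*Sgk1* encodes a kinase that acts on ion channels and transporters and shares targets with AKT, and its isoforms differ at the amino terminus, which governs how quickly the protein is degraded. The gene lies on chromosome 10 (21882184 to 21999903, plus strand) and was read from 3 starts that each supply their own start codon. The sequences below come from the GENCODE M21 transcripts on mm10. They are shown for the part in which the protein isoforms differ, of which they hold only a piece. Capitals mark the last 57 coding bases of the exon that holds the start codon, and lower case the first 12 bases of the next exon. The coordinates of the capitals are chr10:21994769-21994825 for Sgk1-201, chr10:21994125-21994181 for Sgk1-202 and chr10:21882651-21882707 for Sgk1-204, all on the plus strand.
Sgk1-201: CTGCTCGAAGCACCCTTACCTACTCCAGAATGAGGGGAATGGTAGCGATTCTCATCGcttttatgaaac
Sgk1-202: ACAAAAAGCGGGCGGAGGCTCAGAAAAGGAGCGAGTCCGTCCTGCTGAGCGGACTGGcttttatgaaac
Sgk1-204: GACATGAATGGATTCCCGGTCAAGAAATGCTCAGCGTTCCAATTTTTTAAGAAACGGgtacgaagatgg
Sgk1-201 and Sgk1-202 join the same next exon, at 21994966, after 76 and 118 coding bases of their own. The distal Sgk1-204 starts 112 kb upstream, has 69 coding bases in its first exon and reaches that exon through 2 exons of its own, the first of them at 21928342. The annotated proteins have 431, 445 and 524 residues.

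*Sgk1* had 29 reads in replicate 1 and 44 in replicate 2, a mean of 47.1 ± 16.9 CPM (SD, n = 2), and a different start led in each library. Sgk1-201 took 7 of 24 full-splice reads in replicate 1 (29.2%, exact 95% interval 12.6 to 51.1) and 22 of 39 in replicate 2 (56.4%, 39.6 to 72.2). The distal start of Sgk1-204, with its usual and an unannotated donor (21882845) joined, took 14 (58.3%, 36.6 to 77.9) and 11 (28.2%, 15.0 to 44.9). Sgk1-202 took 3 and 6, 13.9% ± 2.04 (SD, n = 2). The distal start was thus at 16.9 and 14.8 CPM of full-splice reads and the proximal starts together at 12.1 and 37.6 CPM. The mean share was 42.8% for Sgk1-201 and 43.3% for the distal start with both donors. A two-sided Fisher's exact test of Sgk1-201, the first exon with the most reads over both libraries, against the others gave p = 0.0416 and an adjusted p of 1 over the 3592 genes tested (Benjamini-Hochberg). The distal chain of Sgk1-204 itself had 10 and 9 reads, and both of its extra exons were present in 12 and 11 reads.

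The stretch ahead of the Sgk1-202 start held the palindrome bound by both receptors, the glucocorticoid response element. The windows of 250 bases before the starts of Sgk1-204, Sgk1-202 and Sgk1-201, from RefSeq on GRCm38.p6, are printed to show where it sits among the starts that were read. They cover chr10:21881934-21882183, chr10:21993640-21993889 and chr10:21994416-21994665 on the plus strand, and the latter pair lie in the third intron of Sgk1-204. Capitals mark the full palindrome and, 242 bases before the start, a separate single arm of it (6 bases) in the Sgk1-202 window, and a single arm in the Sgk1-204 window.
Sgk1-204 upstream: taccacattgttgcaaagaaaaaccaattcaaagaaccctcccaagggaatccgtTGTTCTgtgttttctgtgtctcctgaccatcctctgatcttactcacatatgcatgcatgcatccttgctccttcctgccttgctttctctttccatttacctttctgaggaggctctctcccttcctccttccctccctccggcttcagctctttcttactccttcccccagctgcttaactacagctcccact
Sgk1-202 upstream: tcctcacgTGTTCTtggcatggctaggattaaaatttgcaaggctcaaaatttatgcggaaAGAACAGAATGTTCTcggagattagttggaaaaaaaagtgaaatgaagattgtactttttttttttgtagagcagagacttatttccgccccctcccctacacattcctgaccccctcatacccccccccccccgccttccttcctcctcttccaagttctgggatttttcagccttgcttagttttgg
Sgk1-201 upstream: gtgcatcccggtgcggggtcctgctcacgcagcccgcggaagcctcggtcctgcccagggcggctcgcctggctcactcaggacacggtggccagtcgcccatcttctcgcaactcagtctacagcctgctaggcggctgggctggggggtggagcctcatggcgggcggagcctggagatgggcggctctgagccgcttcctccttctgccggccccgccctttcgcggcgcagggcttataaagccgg
The motif searched was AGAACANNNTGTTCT, which reads the same on both strands, and its single arm AGAACA on either strand, each by its exact letters. Matches of the full motif contain matches of the arm. The full motif at 21993701 to 21993715 begins 189 bases before the Sgk1-202 start and 965 bases before the Sgk1-201 start. It occurred in 3 of 32817 RefSeq windows of 300 bases (250 before to 50 after a start), or 0.00914%, the others being those of *Acnat2* and *Gm35041*. The single arm was present in 19.0% of the windows. RefSeq windows were at hand for 5 of the 6 genes, but not for every start that was read. The leading starts of *Nr3c2* (Nr3c2-204) and *Tsc22d3* (Tsc22d3-201) had no window, so the stretches ahead of them were not searched. Among the windows at hand, those of *Fkbp4*, *Fkbp5* and *Nr3c2* (start at 76902330) and that of the Tsc22d3-202 start held neither the full motif nor the arm. In *Tsc22d3*, 1 window (start at 140600522) held the single arm 185 bases before that start. A match is a description of letters, and binding was not measured here.

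*Tsc22d3* encodes GILZ, a leucine zipper protein that holds back inflammatory transcription factors, and was likewise read from separate starts with their own coding exons. It lies on chromosome X (140539528 to 140600659, minus strand). The coding ends of the short and long forms are shown in the same way, with capitals at chrX:140542846-140542902 for Tsc22d3-201 and chrX:140598128-140598184 for Tsc22d3-203 (minus strand, GENCODE M21 on mm10), and both join the exon that begins at 140542156.
Tsc22d3-201: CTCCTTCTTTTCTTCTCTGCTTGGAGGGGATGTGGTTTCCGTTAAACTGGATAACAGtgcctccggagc
Tsc22d3-203: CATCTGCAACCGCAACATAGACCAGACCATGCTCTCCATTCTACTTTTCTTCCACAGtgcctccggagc
The short form supplies 122 coding bases before that junction and the long form 314, for annotated proteins of 137 and 201 residues.

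*Tsc22d3* had 71 and 73 reads, a mean of 91.9 ± 8.50 CPM (SD, n = 2). Tsc22d3-201, the short protein form, took 29 of 64 and 39 of 65 full-splice reads, 52.7% ± 10.4 (SD, n = 2). Tsc22d3-202, which starts at 140542668 and which the annotation classes as a processed transcript without a coding sequence, took 27 and 17, 34.2% ± 11.3 (SD, n = 2). Both starts, together with a donor variant (1 and 1 reads) made up 57 of 64 and 57 of 65 reads. A two-sided Fisher's exact test of Tsc22d3-201 against the other first exons gave p = 0.114, with an adjusted p of 1 (Benjamini-Hochberg).

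The long form was read in 7 of 64 full-splice reads in replicate 1 (10.9%, exact 95% interval 4.51 to 21.2) and 8 of 65 in replicate 2 (12.3%, 5.47 to 22.8), and in none of them from its annotated first exon. All of these reads contained the start codon exon of Tsc22d3-203 (140598128 to 140598558), and the annotated intron ahead of that exon was used by 0 and 0 reads. Instead they came from unannotated exons between the annotated first exon and the start codon exon. An exon starting at 140599209 had 5 and 7 reads, with a donor at 140598917 (4 and 5) or 140598878 (1 and 2). One starting at 140599709 had 1 and 1, and one starting at 140599446 had 1 and 0. The exon starting at 140599209 appeared in the models of both libraries.

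**Figure D3:**
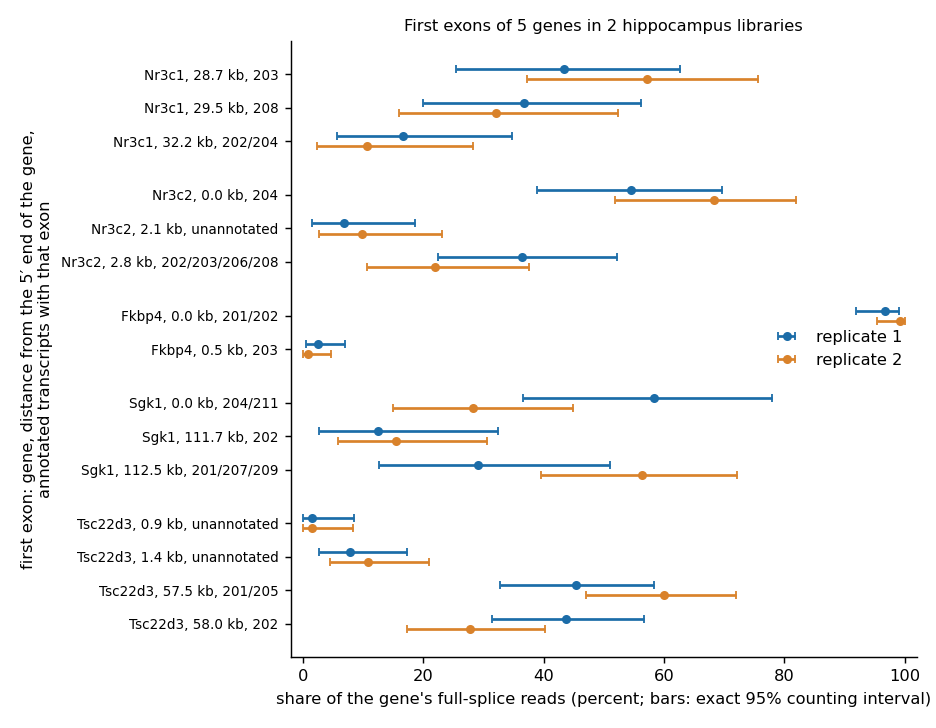
Share of full-splice reads (horizontal axis, percent, exact 95% counting intervals as bars) for each first exon with more than 1 read, in replicate 1 (blue) and replicate 2 (orange); overlapping first exons are joined, and labels give the distance from the 5′ end of the annotated gene. Fkbp4 is near 100%, and the intervals of the 2 libraries overlap for each exon drawn, including Sgk1-201 (29.2% and 56.4%).

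Of the 5 genes that had 20 or more full-splice reads per library, *Nr3c1*, *Nr3c2*, *Sgk1* and *Tsc22d3* had 2 or more first exons with at least 10% of reads in each, and *Fkbp4* had 1. Over all 4612 genes with that many reads, 644 had such alternative first exons (14.0%). *Fkbp5* had too few full-splice reads to be counted. For these 4 genes the finding held with the limit at 5% or 20% and with overlapping exons joined. Known models carry the ends of the annotation, so these first exons are told apart by splice donors and not by where reads began. No leading isoform or first exon of the 5 genes differed between the libraries by two-sided Fisher's exact tests (adjusted p = 1 in each, Benjamini-Hochberg). The background of these tests was 10 of 4612 genes called for isoforms (0.217%) and 6 of 3592 for first exons (0.167%), and *Sgk1* alone among the 5 had an unadjusted p under 0.05.

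In level, all 6 genes were higher in replicate 2, and none passed the test between libraries. The log2 ratio of replicate 2 to replicate 1 was 0.75 for *Fkbp5*, 0.74 for *Sgk1*, 0.22 for *Nr3c2*, 0.19 for *Nr3c1* and *Tsc22d3* and 0.07 for *Fkbp4*. A two-sided exact binomial test, with the library totals as the null ratio, called 0 of 6 (Benjamini-Hochberg adjusted p below 0.05 with a 2-fold minimum), against 28 of 9062 genes (0.309%). The smallest values were those of *Sgk1*, with an unadjusted p of 0.0343 and an adjusted p of 0.608. It was the 1 gene of the 6 with an unadjusted p under 0.05, against 672 of the 9062 (7.42%). The summed choroid plexus markers were at 339.9 and 189 CPM, and those of oligodendrocytes were 2363 and 2613 CPM. *Ttr*, nearly all of the choroid plexus sum, had a log2 ratio of -0.897. Its adjusted p was 1.29e-06 (exact binomial test, Benjamini-Hochberg), and it was not called because it fell short of the 2-fold minimum. The part of these markers in the *Sgk1* difference was not tested.

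A list of 22 other genes known to respond to glucocorticoids was set beside these values. Of the 13 with at least 20 reads together, 11 had the higher level in replicate 2, with a median log2 ratio of 0.46, against 50.9% of all 9062 genes and a median of 0.01. By the number of genes, such a lean was not particular to this list. Receptor coactivators and corepressors had 11 of 14 higher (median 0.15) and microglial markers 4 of 5 (0.33). Both medians were smaller than that of the responsive genes, and 0 genes of either list had an unadjusted p under 0.05 (exact binomial test). Receptor chaperones had 7 of 16 higher and endothelial markers 0 of 3. None of the 13 responsive genes was called by the exact binomial test with Benjamini-Hochberg adjustment, against 28 of all 9062 genes (0.309%). An unadjusted p under 0.05 was reached by 4 of the 13, against 672 of the 9062 (7.42%). These shares over all genes are also the background for the lists below. *Klf9*, a transcription factor gene that glucocorticoids induce in neurons, had the highest mean of the list at 263.7 and 363.5 CPM, with 46 of 218 and 56 of 271 reads in full-splice models. The metallothionein *Mt1*, above it in replicate 1, was at 278 and 249.5 CPM with all reads in full-splice models, and *Errfi1*, an inhibitor of the EGF receptor, at 135 and 137. *Plin4* was lowest with 0 and 1 read, and *Lcn2* had 0 reads in both. Chosen after its values were seen, *Zbtb16*, which encodes the zinc finger protein PLZF, had the largest ratio of the list over all reads, with 3 and 18 (log2 ratio 2.55, adjusted p = 0.0836 by the exact binomial test with Benjamini-Hochberg adjustment), but only 1 and 0 of them were full-splice reads. On full-splice reads alone, an alternative chosen after seeing the data, 8 of the 11 listed genes tested were higher in replicate 2, with a median log2 ratio of 0.27, against 51.6% of 7558 genes and a median of 0.01. The list's median level was 18.0 CPM, close to the 19.8 CPM of all genes read in both libraries, and 19 of its 22 genes were read in both.

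**Figure D4:**
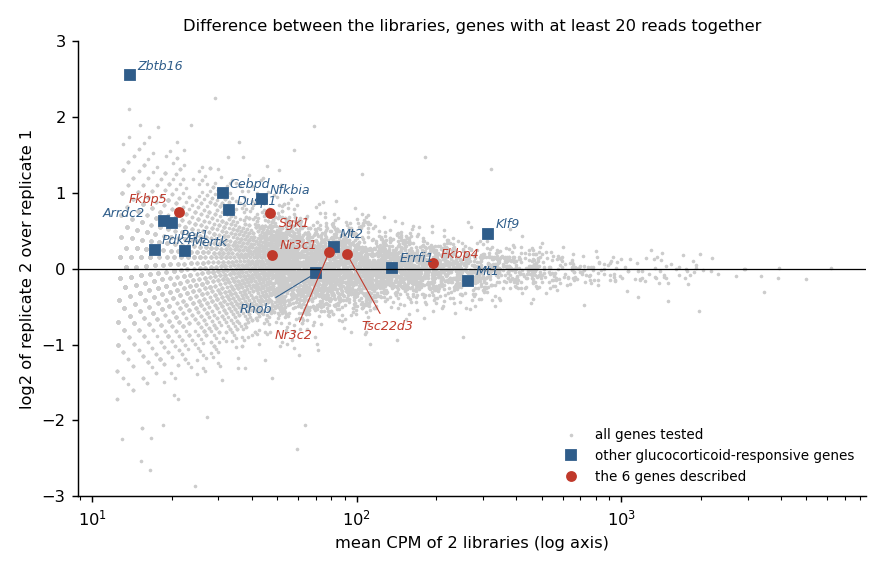
Log2 of replicate 2 over replicate 1 (vertical axis) against mean CPM (log horizontal axis) for genes with at least 20 reads together: all genes in grey, the 6 genes described as red circles and 13 other glucocorticoid-responsive genes as blue squares. The 10 genes beyond 3 on the log2 scale are not drawn. The red circles lie between 0.07 and 0.75, and Zbtb16 (2.55) lies highest of the squares.

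The receptor chaperone machinery was abundant. All 16 genes of this list were read in both libraries. Their median was 156 CPM, and 12 were at 100 CPM or more, as were 1929 of the 14787 genes overall. The constitutive heat shock protein gene *Hspa8* was at 1867 and 1757 CPM, *Hsp90ab1*, the main cytoplasmic HSP90 of unstressed cells, at 1798 and 1760, and *Hsp90aa1* at 527 and 445. The lowest was *Hspa4*, an exchange factor of HSP70, at 52.0 and 57.7. Receptor coactivators and corepressors were lower, with a median of 44.6 CPM and all 16 read in both libraries. *Trim28* led at 243 and 278 CPM, followed by the steroid receptor coactivator *Ncoa1* at 207 and 237 and the chromatin remodeller *Smarca4* at 142 and 159.6, while *Ncoa3* was lowest at 8.47 and 6.71. None of the tested genes of either list, 16 and 14, was called between the libraries (exact binomial test, Benjamini-Hochberg), and 2 and 0 of them had an unadjusted p under 0.05.

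Of the genes that make, inactivate or carry corticosteroids, 5 of 10 were read in both libraries and the other 5 had 0 reads. *Hsd11b1*, whose enzyme regenerates active corticosterone inside cells, was at 47.2 and 55.0 CPM, close to the level of *Nr3c1*. *Hsd11b2*, whose enzyme shields the mineralocorticoid receptor from corticosterone in kidney, had 0 reads, as did *Hsd3b2*, the adrenal steroid synthesis genes *Cyp11b1* and *Cyp11b2*, and *Serpina6*, the plasma corticosteroid-binding globulin. The steroid reductase gene *Srd5a1* was at 10.9 and 9.39 CPM, and the drug efflux pump genes *Abcb1a* and *Abcb1b* at 7.26 and 8.05 and at 3.63 and 10.7. The median of the list was 3.59 CPM. Of 12 genes of the corticotropin system, with a median of 0.973 CPM, 6 were read in both libraries. The binding protein gene *Crhbp* was highest at 23.0 and 33.5 CPM, then the receptors *Crhr1* at 6.05 and 17.4 and *Crhr2* at 12.1 and 2.68. *Avpr1a* had 0 and 1 read, and *Ucn*, *Ucn2*, *Ucn3*, *Avpr1b* and *Mc2r*, the adrenal receptor of corticotropin, had 0 in both. Of each of these lists 1 gene had enough reads to test, and 0 were called or had an unadjusted p under 0.05 (exact binomial test, Benjamini-Hochberg).

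Among 13 partners and substrates of SGK1, whose median was 12.7 CPM, 10 were read in both libraries. Its substrate *Ndrg2* stood far above *Sgk1* at 1030 and 1045 CPM, and the ubiquitin ligase gene *Nedd4l*, another substrate, was at 83.5 and 104.6, and *Ndrg1* at 66.5 and 55.0. *Sgk2* had 2 and 0 reads. Of the epithelial sodium channel, the classic target of the mineralocorticoid receptor and SGK1 in kidney, *Scnn1b* and *Scnn1g* had 0 reads in both. Its subunit gene *Scnn1a*, named outside the naming rule to complete the channel, had 4 and 8 reads (4.84 and 10.7 CPM). Of 15 paralogues of FKBP51, FKBP52 and GILZ, whose median was 40.0 CPM, 14 were read in both libraries. The highest were *Fkbp1a*, which encodes FKBP12, at 952 and 1038 CPM, *Fkbp8* at 629 and 581 and *Tsc22d1* at 207 and 223, and *Fkbp11* had 0 and 1 read. None of the 7 partners and 10 paralogues tested was called (exact binomial test, Benjamini-Hochberg), and 0 and 1 had an unadjusted p under 0.05.

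**Figure D5:**
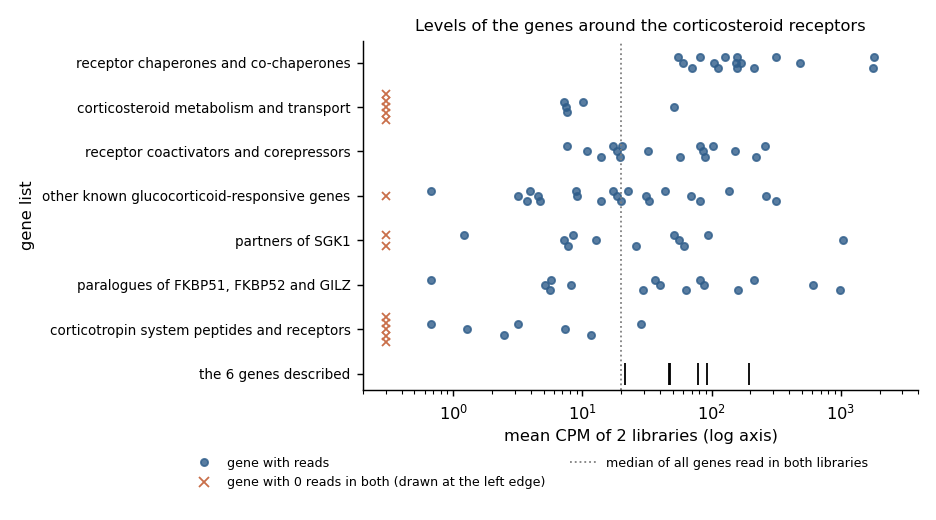
Mean CPM of both libraries (log horizontal axis) for each gene of 7 lists around the corticosteroid receptors (rows), with the 6 genes described as black ticks in the last row and the median of all genes read in both libraries, 19.8 CPM, as a dotted line. Crosses at the left edge are genes with 0 reads in both, 5 of them in steroid metabolism and 5 in the corticotropin system; all 16 chaperone genes lie to the right of the dotted line.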

How the data were processed

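The deposited values were raw counts, whole numbers of reads on each transcript model that the authors had not normalized; per the file headers the structures came from TALON, and per the deposited text files reads were on mm10 with GENCODE M21. Aligner and platform: not given in the sources used here. Other deposited values gave each model's number of exons, length and coordinates, and the authors listed only models with at least 1 read. Libraries held 836240 and 752291 reads, 9644 and 6799 of them on spike-ins. Unannotated models had been built per library, so chains were matched by introns and first exons by splice donor.

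Counts were summed by gene identifier. Library differences were tested with two-sided exact binomial tests for genes with at least 20 reads together, and shares with two-sided Fisher's exact tests where both libraries had 20 or more full-splice reads, with Benjamini-Hochberg adjustment over all genes tested. Intervals are exact 95% Clopper-Pearson intervals, and the floor for 0 reads is 3 reads. The scripts were tested on simulated data. The 6 genes, the 15 gene lists and the rules were chosen with earlier results of these data known. Named are the 6 genes, of each pathway list the 3 highest, the lowest above 0 and those with 0 reads, other receptors of the subfamily, and isoforms with at least 5% of reads or unannotated in both libraries; markers of tissue cell types are given as sums. One result that the rule takes is not reported here. With 1 group, no gene could be named for likeness of pattern. Alternatives changed the model classes counted, scaling (TMM from edgeR 4.0.16 in R 4.3.3), read minimum, fold, share and grouping, or left out a library. Python 3.11.15, pandas 2.3.3, numpy 2.4.6 and scipy 1.17.1 were used.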

Additional observations from a re-analysis of the deposited data

Results flagged for a closer look

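Reads on the strand opposite to the genes belong to models outside the counts above and are listed here as a signal in data that no comparison used. Over *Sgk1* there were 27 such reads in replicate 1 and 21 in replicate 2, all in unspliced models. One model in the first intron of the distal form, from 21884173 to 21885958 in replicate 1 and to 21885957 in replicate 2, had 20 and 8 of them. Models with 21995474 as their lowest coordinate, over the shared exons, had 4 and 13. Over *Fkbp5* there were 21 and 25, the most in single-exon models with 10 and 7 reads ending at 28484872 and with 5 and 12 reads near 28412887 and 28412881. Over *Nr3c2* there were 16 and 22, of which the annotated opposite-strand gene *Gm10649* had 4 and 8. Single-exon models with 76906593, the first base of the 31-base noncoding exon, as their lowest coordinate had 4 and 3. Over *Nr3c1* there were 4 in replicate 1 and 2 in replicate 2, over *Tsc22d3* 1 and 2, and over *Fkbp4* 0 in both. The labels used here do not say whether strand was kept by the library kit, and the source of these reads was not tested.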

How the results depend on the processing

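With full-splice models alone, scaled to the reads kept, mean levels were 56.4 CPM for *Nr3c1*, 236 for *Fkbp4*, 9.97 for *Fkbp5* and 126 for *Tsc22d3*. Scaled to all reads not on spike-ins they were 36.9 for *Nr3c1*, 54.1 for *Nr3c2*, 154 for *Fkbp4*, 6.51 for *Fkbp5* and 82.3 for *Tsc22d3*. Without genomic models, *Fkbp4* was at 177 and *Fkbp5* at 8.57 CPM. The ratio of their reads, 12.1 and 7.45, was then 32.2 and 15.5, and 41.3 and 16.9 on full-splice models alone (alternatives chosen after seeing the data). Genes called between libraries rose from 28 to 52 with no fold limit and to 59 without genomic models (8306 genes tested). With known models alone, the calls fell from 10 to 0 for isoforms (3803 genes) and from 6 to 0 for first exons (1447 genes); fewer genes and reads entered these fits. The leading isoform then took 67.5% in *Nr3c2* and 100% in *Fkbp4*. Genes with alternative first exons fell from 644 to 332 at a limit of 20% and to 362 with overlapping exons joined. The median full-splice share of all genes moved from 85.0% to 86.8% with at least 50 reads per library. The remaining 135 values kept their direction and their side of each threshold, or moved by less than 1 SD or 1.5 times, and no value reversed. They include those that leave out a library. With n = 2, leaving out a library always moves a mean by less than 1 SD. Those values could therefore not fail the rule and say nothing about stability. No paired analysis was possible because the study has a single group. Depth limits *Fkbp5*, with 3 and 7 full-splice reads, and every share of an isoform under about 10 reads.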
